A study of Mus musculus with 24 samples.

Results

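Crem, Sik1, Per1 and Nfil3 are 4 regulatory genes linked to cyclic AMP (cAMP) signalling and to the circadian clock, and they are 4 of the 7926 genes of a deposited table of log2 expression values. They were taken by name, as the rows of that table with these gene symbols, in all 24 libraries, and were chosen with earlier results of these data known. All 4 members also passed the filter on low values (kept were genes whose log2 value reached 1 in 3 libraries or more), which left 5007 genes for testing. In these libraries Crem, Sik1 and Per1 were higher in every library of γδ T cells from adipose tissue and lung than in every library from spleen and lymph node. Nfil3 also stood above spleen and lymph node within each sorted subset. With each library scaled to its own median, only Crem stayed apart from spleen and lymph node in both tissues within each subset. No member passed the test between the subsets, and Nfil3 had the largest fitted difference, with a 2.32-fold higher level in PLZF+ cells averaged over tissues.

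The cells were γδ T cells, lymphocytes whose antigen receptor is made of a γ and a δ chain, sorted as PLZF+ or PLZF- on a FACSAria Fusion from PLZF-GFP reporter mice. PLZF is a transcription factor of innate-like lymphocytes, and GFP stands in for it in these mice. All groups shared the same strain (C57Bl/6), sex (male), age (16 to 22 weeks), PLZF-GFP genotype and free access to food, and the labels give no treatment. Each subset came from 4 tissues, namely the epididymal fat pad, the lung, the spleen and the inguinal lymph node, and Smart-seq2 libraries, made from full-length cDNA of few cells, were sequenced. The labels list 3 libraries for each of 8 groups, while the series text speaks of 2 replicates of cells pooled from 10 mice each. No label says that the libraries of a group came from separate mice, so p-values here measure only the spread between these libraries, which may be technical. The hour of tissue collection and the way tissues were dissociated are not given in the sources used here.

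In the cAMP pathway, receptors coupled to the stimulatory G protein raise cAMP, cAMP activates protein kinase A, and the kinase phosphorylates CREB, which binds cAMP response elements together with CRTC coactivators. Crem encodes a relative of CREB, and transcripts from its internal promoter give ICER, a short repressor that is induced by cAMP and shuts the response down. Sik1 encodes a salt-inducible kinase that is itself a CREB target and phosphorylates CRTC coactivators, which keeps them out of the nucleus. Per1 encodes a repressor of the clock's own activators and is also induced acutely by cAMP and by glucocorticoids. Nfil3 (E4BP4) encodes a repressor that binds D-box elements in clock output genes and is known in lymphocytes for its part in natural killer cell and innate lymphoid cell development.

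The promoters of Per1 and Nfil3, the clock repressor and the D-box repressor, are shown so that motifs linked to cAMP and clock inputs can be read in them. Promoters of Crem and Sik1 are not used here, so no count of motifs over the 4 members is given. Each runs from 250 bases before to 50 bases after a start site, in RefSeq's mouse build GRCm38.p6, and Per1 has a pair of annotated start sites. Capitals mark the CRE core (TGACG, or CGTCA on the other strand) and the E-box (CACGTG).
Per1, upstream start, chr11:69098699-69098998, + strand: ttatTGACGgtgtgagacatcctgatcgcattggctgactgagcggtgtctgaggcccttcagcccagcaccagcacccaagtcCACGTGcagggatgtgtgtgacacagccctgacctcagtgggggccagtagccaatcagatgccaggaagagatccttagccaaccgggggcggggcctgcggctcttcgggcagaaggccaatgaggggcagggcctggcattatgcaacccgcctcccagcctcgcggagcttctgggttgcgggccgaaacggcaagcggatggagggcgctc
Per1, downstream start, chr11:69099902-69100201, + strand: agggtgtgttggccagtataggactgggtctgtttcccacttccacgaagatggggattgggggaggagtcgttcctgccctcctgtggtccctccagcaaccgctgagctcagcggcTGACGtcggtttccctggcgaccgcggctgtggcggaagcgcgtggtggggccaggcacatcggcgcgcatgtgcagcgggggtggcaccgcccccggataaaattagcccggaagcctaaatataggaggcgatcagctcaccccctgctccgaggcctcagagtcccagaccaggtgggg
Nfil3, chr13:52980990-52981289, - strand: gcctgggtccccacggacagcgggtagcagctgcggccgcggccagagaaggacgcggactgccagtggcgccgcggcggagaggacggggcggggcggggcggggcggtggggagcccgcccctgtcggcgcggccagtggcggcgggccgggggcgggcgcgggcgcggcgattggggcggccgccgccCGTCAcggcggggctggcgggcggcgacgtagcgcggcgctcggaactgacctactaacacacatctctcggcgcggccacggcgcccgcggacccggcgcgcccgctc

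The upstream Per1 promoter held a CRE core that starts 246 bases before the start site and an E-box that starts 166 bases before it. The downstream Per1 promoter held a CRE core that starts 132 bases before its start site. The Nfil3 promoter held a CRE core in the reverse orientation, 59 bases before the start site. Over 32851 promoters of this length in the same table, 20.8% held the CRE core and 7.15% the E-box on either strand. None of these 3 promoters held the full CRE (TGACGTCA, in 1.79% of all promoters), the D-box (TTATGTAA or TTACATAA, 0.938%) or the TATA motif (TATAAA, 13.6%). The core is contained in the full site. These matches describe letters and not binding.

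The deposited values equal log2 of reads plus 0.5 with a term for each library and each gene, so whole reads could be recovered. They are given below as normalized reads, which are reads divided by the library's relative depth (geometric mean of 24 libraries set to 1). Total reads over the table ranged from 56684 to 832764 per library. The shallowest 4 libraries were lung libraries 2 and 3 of both subsets, at 56684 to 115744 reads. Of 15 listed T cell markers 6 were in the table, which holds genes kept for a tissue difference. These 6 (Cd3d, Cd3e, Cd3g, Cd247, Tcrg-C2 and Tcrg-C4) had reads in every group. In PLZF- cells they took 0.0679 to 0.351% of reads in adipose tissue, 0.157 to 0.393% in lung, 0.881 to 1.12% in spleen and 1.1 to 1.58% in lymph node. In PLZF+ cells they took 0.302 to 0.931%, 0.439 to 0.711%, 1.39 to 1.68% and 1.34 to 2% in the same order. The PLZF+ share was higher with no overlap in lung and spleen. The part of this in the subset differences below was not tested. Reads depend on transcript length, so levels are compared between groups and not between genes.

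**Figure D1:**
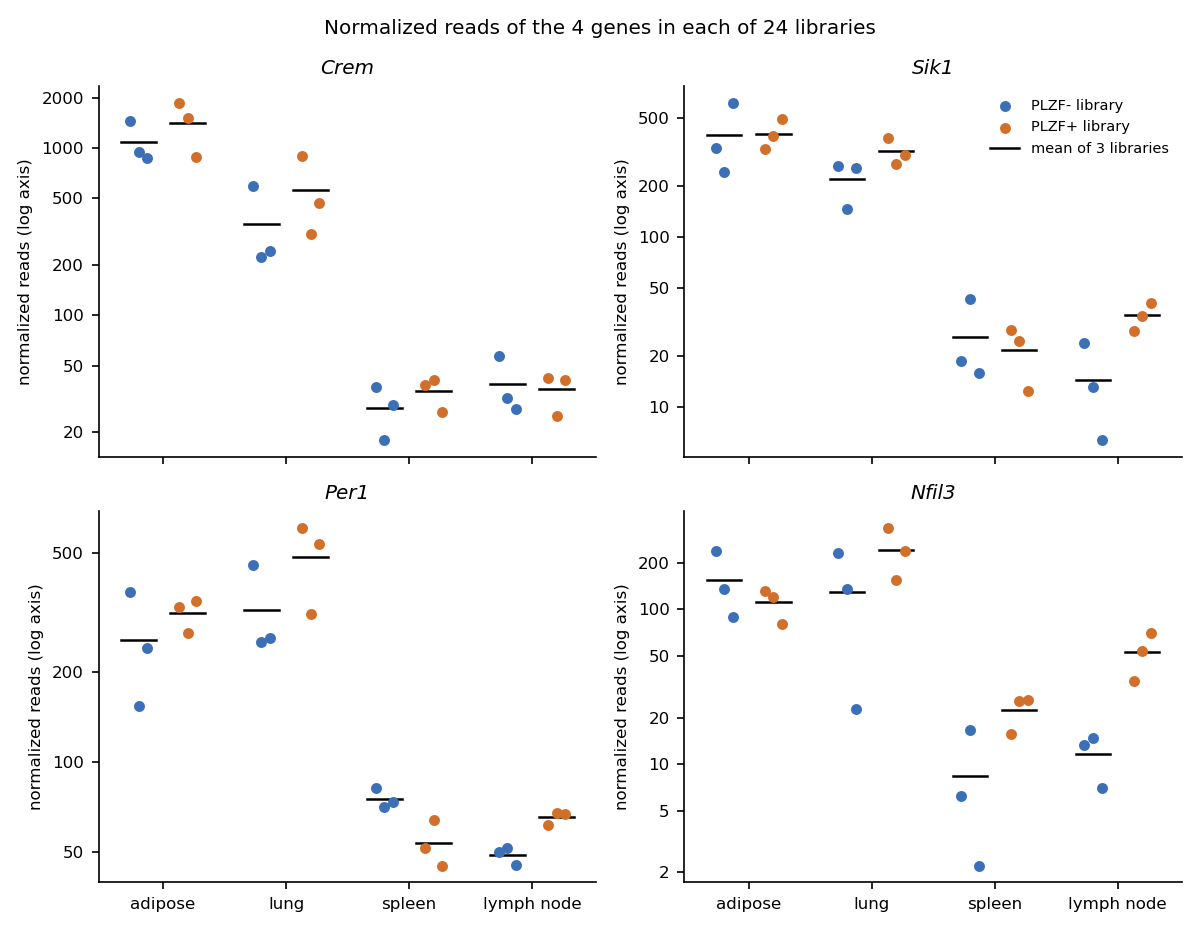
Normalized reads (log axis) of Crem, Sik1, Per1 and Nfil3 in each library, by tissue, with PLZF- libraries in blue, PLZF+ libraries in orange and a bar for the mean of 3 libraries. Adipose and lung libraries lie above all spleen and lymph node libraries for Crem, Sik1 and Per1, while 1 PLZF- lung library of Nfil3, at 22.6 normalized reads, lies among them.

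Crem had 1443, 942 and 875 normalized reads in PLZF- adipose libraries 1, 2 and 3 (mean 1087 ± 311, SD, n = 3). It had 1858, 1511 and 878 in the PLZF+ adipose libraries (1416 ± 497). These were the highest groups, and their libraries overlapped each other. In lung it had 589.9, 224 and 243 in PLZF- libraries (352 ± 206) and 891, 307 and 471 in PLZF+ libraries (557 ± 301). In each subset the deep lung library 1 was the highest of its 3, and the shallow libraries 2 and 3 rested on 38 to 155 reads of Crem. In spleen it had 37.1, 17.9 and 29.1 in PLZF- libraries (28.1 ± 9.64) and 38.2, 41.1 and 26.5 in PLZF+ libraries (35.3 ± 7.73). In lymph node it had 56.7, 32 and 27.5 in PLZF- libraries (38.7 ± 15.7) and 42.3, 25.1 and 41.1 in PLZF+ libraries (36.2 ± 9.63). These 4 lymphoid groups overlapped each other, and the lowest adipose or lung library (5.89 on the log2 scale) stood above the highest lymphoid library (3.90). The Crem row sums all of its transcripts, so ICER and the longer forms cannot be told apart. It also overlaps exons of Gm6225 on the opposite strand, which has 0 to 26 reads per library in the same table, and whether the counting used strand is not given in the sources used here.

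Sik1 had 336, 241 and 617 normalized reads in the PLZF- adipose libraries (398 ± 195) and 328, 393 and 495 in the PLZF+ adipose libraries (405 ± 83.8). In lung it had 262, 147 and 254 in PLZF- libraries (221 ± 64.3) and 385, 269 and 304 in PLZF+ libraries (319 ± 59.4). The adipose groups overlapped each other and the PLZF+ lung group, and each PLZF+ lung library was above each PLZF- lung library. In spleen it had 18.6, 43 and 15.8 in PLZF- libraries (25.8 ± 15) and 28.3, 24.3 and 12.3 in PLZF+ libraries (21.6 ± 8.31). In lymph node it had 23.6, 13.1 and 6.35 in PLZF- libraries (14.4 ± 8.7) and 28, 34.4 and 41.1 in PLZF+ libraries (34.5 ± 6.52). PLZF- lymph node was the lowest of the 8 groups, and its library 3 held 9 reads of Sik1. All 12 adipose and lung libraries (at least 4.96, log2) were above all 12 lymphoid libraries (at most 3.17).

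Per1 had 371, 154 and 241 normalized reads in the PLZF- adipose libraries (256 ± 109) and 329.6, 270.2 and 346 in the PLZF+ adipose libraries (315 ± 39.8). In lung it had 455, 253 and 260.0 in PLZF- libraries (323 ± 115) and 606, 314 and 535 in PLZF+ libraries (485 ± 152). For Per1 the order of the upper groups was led by PLZF+ lung and not by adipose tissue, although neighbouring groups overlapped. In spleen it had 81.7, 70.5 and 73.3 in PLZF- libraries (75.2 ± 5.79) and 51.6, 63.7 and 45 in PLZF+ libraries (53.4 ± 9.49). In lymph node it had 50.1, 51.7 and 45.1 in PLZF- libraries (49 ± 3.42) and 61.7, 67.3 and 67.2 in PLZF+ libraries (65.4 ± 3.22). The subsets thus stood in opposite order in the lymphoid tissues, PLZF- above PLZF+ in spleen and PLZF+ above PLZF- in lymph node, with no overlap in either. Of all genes tested, 23% did not overlap between subsets in spleen and 13.5% in lymph node, in either direction. The lowest adipose or lung library was at 5.42 and the highest lymphoid library at 4.50 (log2).

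Nfil3 had 238, 135 and 89.2 normalized reads in the PLZF- adipose libraries (154 ± 76.2) and 131, 121 and 80.7 in the PLZF+ adipose libraries (111 ± 26.7). In lung it had 233, 135 and 22.6 in PLZF- libraries (130.4 ± 105) and 335, 154 and 237 in PLZF+ libraries (242 ± 90.9). The low PLZF- lung value is 4 reads in a library of 56684. In spleen it had 6.19, 16.7 and 2.21 in PLZF- libraries (8.38 ± 7.51) and 15.6, 25.5 and 25.9 in PLZF+ libraries (22.3 ± 5.85). In lymph node it had 13.2, 14.8 and 7.05 in PLZF- libraries (11.7 ± 4.09) and 34.7, 54 and 70.3 in PLZF+ libraries (53 ± 17.9). Among the lymphoid groups PLZF+ lymph node was above PLZF+ spleen, which was above PLZF- lymph node, each step without overlap, and the PLZF- groups of the lymphoid tissues overlapped. Unlike the other members, its lowest adipose or lung library (5.58, log2) was below its highest lymphoid library (7.05).

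The p-values of the authors' deposited table were returned by a one-way test over the 4 tissues, with the subsets pooled, for 7915 genes. In the authors' deposited table Crem was rank 2 of 7926 genes by p (p = 1.96e-13, q = 4.17e-09), Per1 rank 5 (6.59e-11, 5.61e-07), Sik1 rank 7 (1.23e-10, 6.65e-07) and Nfil3 rank 641 (3.96e-05, 0.00263). Since every gene of the table passed that test, tissue differences are given as a description with no further test. Every adipose and lung library was above every spleen and lymph node library for 3 of the 4 members, against 2.38% of all genes tested. The members were chosen with earlier results of these data known. This share and those in the tissue comparisons below therefore only give a scale and are no evidence of enrichment. The adipose and lung comparisons within a subset share their spleen and lymph node libraries. In bulk libraries fewer cells of a type and less RNA per cell cannot be told apart.

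In adipose tissue all 4 members stood above spleen and lymph node in each subset. In PLZF- cells the log2 difference from the mean of spleen and lymph node was 5.06 ± 0.41 (SE) for Crem (33.4-fold), 4.40 ± 0.44 for Sik1 (21.1-fold), 1.98 ± 0.31 for Per1 (3.95-fold) and 4.05 ± 0.60 for Nfil3 (16.6-fold). In PLZF+ cells it was 5.26 ± 0.41 for Crem (38.4-fold), 3.91 ± 0.44 for Sik1 (15-fold), 2.41 ± 0.31 for Per1 (5.32-fold) and 1.71 ± 0.60 for Nfil3 (3.26-fold). Every adipose library was above every lymphoid library of its subset for 4 of 4 members, where 19.1% of all genes tested did so in PLZF- cells and 30.4% in PLZF+ cells. The median difference over all genes was 0.58 in PLZF- and 1.15 in PLZF+ cells, and the member nearest to it was Per1 in PLZF- cells and Nfil3 in PLZF+ cells.

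In lung the members were again higher than in spleen and lymph node, Crem by less than in adipose tissue. In PLZF- cells the log2 difference was 3.33 ± 0.41 for Crem (10.1-fold), 3.63 ± 0.44 for Sik1 (12.4-fold), 2.36 ± 0.31 for Per1 (5.14-fold) and 3.45 ± 0.60 for Nfil3 (10.9-fold). In PLZF+ cells it was 3.85 ± 0.41 for Crem (14.4-fold), 3.57 ± 0.44 for Sik1 (11.9-fold), 2.99 ± 0.31 for Per1 (7.92-fold) and 2.79 ± 0.60 for Nfil3 (6.89-fold). Again 4 of 4 members had every lung library above every lymphoid library, against 28.9% of genes in PLZF- and 23.3% in PLZF+ cells. These shares use the deposited values, in which a gene at 0 reads differs between libraries by depth alone. On log2(normalized reads + 1) the shares were 12.6% and 15.9% in lung, and 17% and 16.7% in adipose tissue. The median over all genes was 2.06 in PLZF- and 1.39 in PLZF+ cells, so the Per1 difference in PLZF- cells was close to it. Much of that median lies in genes with few reads, for over the 2829 genes with a mean of at least 10 normalized reads the medians were 0.42 and 0.32 in lung, and 0.59 and 0.29 in adipose tissue.

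**Figure D2:**
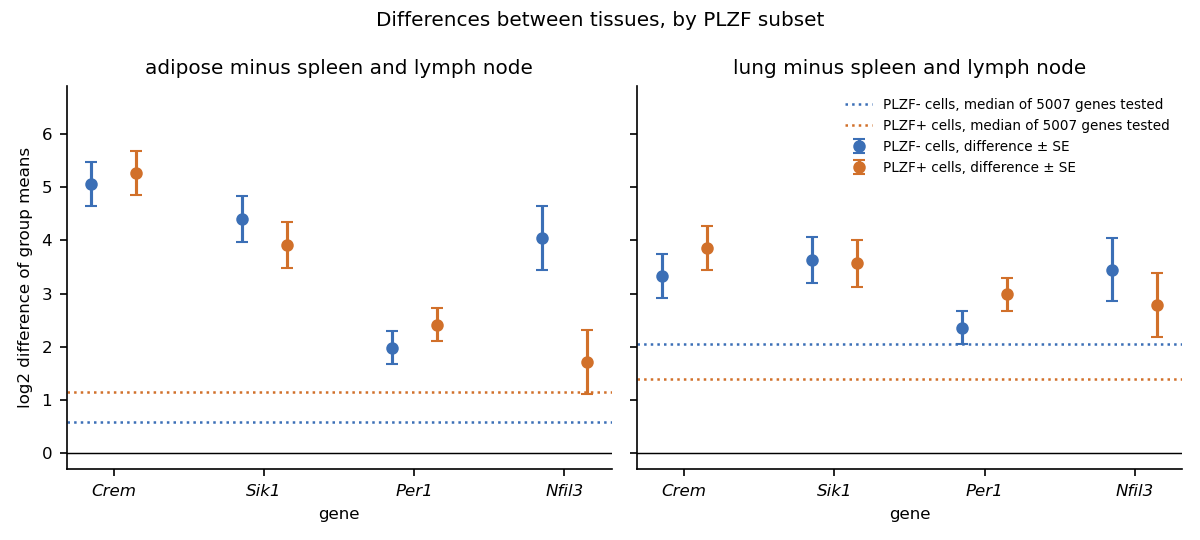
Difference between adipose tissue (left) or lung (right) and the mean of spleen and lymph node on the log2 scale for each gene, with its standard error, in PLZF- (blue) and PLZF+ (orange) cells. Dotted lines give the median over all 5007 genes tested; all members lie above the line of their subset, Crem in adipose tissue farthest (5.06 and 5.26) and Per1 in PLZF- lung nearest (2.36 against 2.06).

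The direction of these 16 differences held under each scaling tried, but the separation of libraries did not. Scaling each library to its own median took the all-gene medians in adipose tissue to -0.54 and 0.13 and in lung to 0.22 and 0.09 (PLZF- and PLZF+ cells). The differences were then 3.94 and 4.24 for Crem, 3.28 and 2.88 for Sik1, 0.86 and 1.39 for Per1 and 2.94 and 0.68 for Nfil3 in adipose tissue. In lung they were 1.50 and 2.55 for Crem, 1.80 and 2.27 for Sik1, 0.53 and 1.68 for Per1 and 1.61 and 1.48 for Nfil3. With that scaling the libraries of Sik1, Per1 and Nfil3 overlapped between PLZF- lung and lymphoid tissue, those of Per1 in PLZF- adipose tissue, and those of Nfil3 in PLZF+ adipose tissue and lung. Without the 4 shallow lung libraries the lung differences rest on lung library 1 of each subset alone, in which each member was the highest of its group. In PLZF- and PLZF+ cells they were 4.22 and 4.66 for Crem, 3.91 and 3.85 for Sik1, 2.90 and 3.36 for Per1 and 4.76 and 3.32 for Nfil3.

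Markers of other cell types also differed between the tissues, not all in the direction of the members. Of 96 listed markers of other cells (αβ T cells, B cells, macrophages, endothelium, stroma and others) 68 were in the table, which holds genes kept for a tissue difference. Together they took 3.92 to 9.38% of reads in adipose tissue and 5.36 to 12.4% in lung, against 1.62 to 6.78% in spleen and 0.783 to 5.34% in lymph node. The 10 endothelial markers took 1.46 to 2.3% in adipose libraries 2 and 3 of both subsets, and 0.0159 and 0.0669% in adipose libraries 1. Crem (1443 and 1858 normalized reads) and Nfil3 (238 and 131) were highest of their group in those libraries 1. B cell markers were also highest there, at 2.24 and 2.39% against 0.375 to 0.787% in adipose libraries 2 and 3. The 6 T cell markers took 0.351, 0.258 and 0.0679% in PLZF- adipose libraries 1, 2 and 3. In the PLZF+ ones they took 0.931, 0.623 and 0.302%, in each subset the order of Crem and Nfil3. Sik1 was highest in libraries 3 (617 and 495), and Per1 in PLZF- library 1 (371) and PLZF+ library 3 (346), so the members did not share an order. Without adipose libraries 2 and 3 the adipose differences rest on adipose library 1 of each subset alone. In PLZF- and PLZF+ cells they were 5.51 and 5.72 for Crem, 4.27 and 3.62 for Sik1, 2.61 and 2.48 for Per1 and 4.79 and 1.97 for Nfil3. The 16 macrophage and monocyte markers took 4.14 to 9.98% of reads in lung, 0.964 to 2.25% in adipose tissue, 0.336 to 1.92% in spleen and 0.0691 to 2.92% in lymph node. The highest lymphoid share, 2.92% in PLZF- lymph node library 1, exceeded all adipose shares, and Crem there was at 56.7 normalized reads, the highest of the 12 lymphoid libraries. The 11 B cell markers took 0.375 to 2.39% in adipose tissue, 0.574 to 1.36% in lung, 0.435 to 3.8% in spleen and 0.141 to 1.32% in lymph node. The 4 αβ T cell markers were lower in adipose tissue (0.0256 to 0.238%) and lung (0.102 to 0.357%) than in spleen (0.603 to 0.849%) and lymph node (0.542 to 1.05%). The part of other cells in the tissue differences was not tested beyond these values. No B cell, macrophage or endothelial marker was at 0 in all 3 libraries of an adipose or lung group, while the adipocyte gene Adipoq was at 0 throughout PLZF+ lung, PLZF- spleen and PLZF+ lymph node, and the lung epithelial gene Sftpc throughout PLZF- spleen and both lymph node groups.

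**Figure D3:**
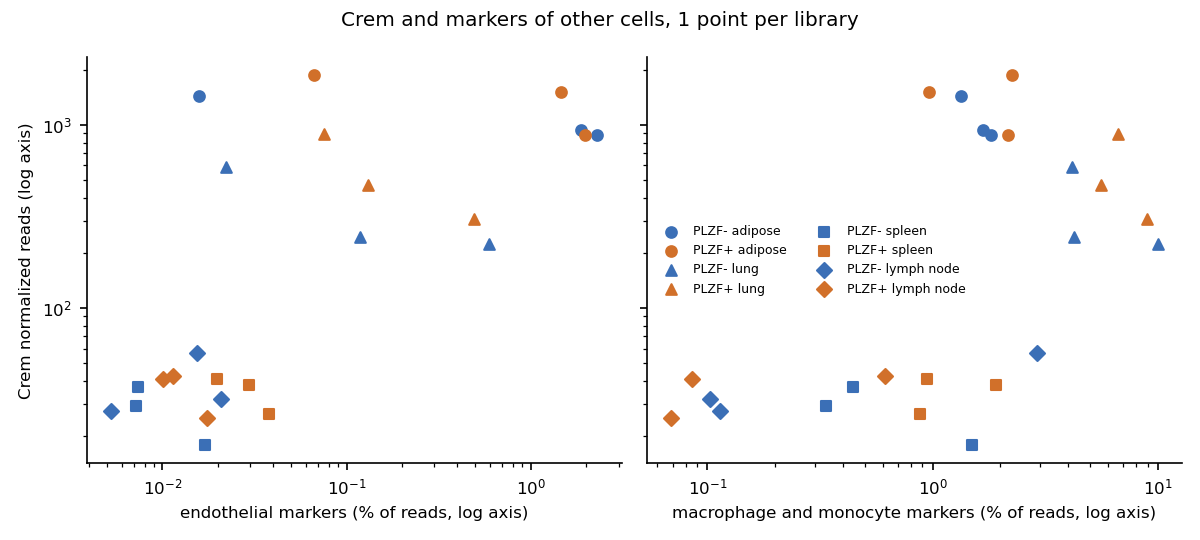
Crem normalized reads (log axis) against the share of reads in 10 endothelial markers (left) and 16 macrophage and monocyte markers (right), both in percent on a log axis, with 1 point per library, coloured by subset and shaped by tissue. Adipose libraries 1, at 0.0159 and 0.0669% endothelial reads, hold 1443 and 1858 normalized reads of Crem, and PLZF- lymph node library 1, at 2.92% macrophage reads, holds 56.7, the highest of the lymphoid libraries.

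Between adipose tissue and lung the members did not share a direction. Crem was 1.73 ± 0.48 (log2) higher in PLZF- adipose tissue than in PLZF- lung, with no overlap, and 1.42 ± 0.48 higher in PLZF+ cells, where the lowest adipose library (878) was just below the highest lung library (891). Sik1 differed by 0.77 ± 0.51 in PLZF- and 0.34 ± 0.51 in PLZF+ cells, and Per1 by -0.38 ± 0.36 and -0.57 ± 0.36, with overlapping libraries. Nfil3 differed by 0.61 ± 0.69 in PLZF- cells, and in PLZF+ cells it was lower in adipose tissue, by 1.08 on the log2 scale (-1.08 ± 0.69), with no overlap. In each subset 1 of 4 members had libraries that did not overlap, against 25.5% of genes in PLZF- and 22.4% in PLZF+ cells. On log2(normalized reads + 1) 376 genes were higher and 310 lower of 5003 in PLZF- cells, and 357 and 574 in PLZF+ cells. A count of 1 among 4 is too small to be told from either background. Without the shallow lung libraries the differences rest on lung library 1 of each subset alone. In PLZF- and PLZF+ cells they were 0.84 and 0.60 for Crem and -0.92 and -0.95 for Per1, and Nfil3 in PLZF- cells was at -0.71. Without adipose libraries 2 and 3, which leaves adipose library 1 alone, Per1 in PLZF- cells was at 0.25, and with median scaling at 0.34.

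Between spleen and lymph node the differences were smaller. In PLZF- cells Per1 was 0.61 ± 0.36 (log2) higher in spleen with no overlap, 1 of 4 members, against 37.5% of genes. In PLZF+ cells Nfil3 was lower in spleen (-1.22 ± 0.69) with no overlap, again 1 of 4, against 22.1% of genes. On log2(normalized reads + 1) 423 genes were higher and 204 lower of 5003 in PLZF- cells, and 662 and 428 in PLZF+ cells. A count of 1 among 4 is too small to be told from either background. The remaining differences, spleen minus lymph node, were -0.46 ± 0.48 for Crem, 0.86 ± 0.51 for Sik1 and -0.85 ± 0.69 for Nfil3 in PLZF- cells, and -0.02 ± 0.48 for Crem, -0.73 ± 0.51 for Sik1 and -0.30 ± 0.36 for Per1 in PLZF+ cells.

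The sorted subsets were compared with limma on the log2 values, with p-values adjusted by Benjamini-Hochberg over the 5007 genes tested. Nfil3 gave the largest difference of the members: averaged over the 4 tissues, its log2 value was 7.10 in PLZF+ and 5.89 in PLZF- cells, a difference of 1.22 ± 0.35 (2.32-fold), which did not pass the threshold of 0.05 (limma adjusted p = 0.103, rank 103 of 5007 by p). The other members differed by 0.33 ± 0.24 for Crem (limma adjusted p = 0.796), 0.47 ± 0.25 for Sik1 (0.602) and 0.22 ± 0.18 for Per1 (0.844). Thus 0 of 4 members passed, against 1.46% of genes, and 1 of 4 had an unadjusted p under 0.05, against 475 of 5007 genes. The Nfil3 difference passed when PLZF- lung library 1 was left out (1.38 ± 0.33, limma adjusted p = 0.0411), when PLZF- spleen library 2 was left out (1.39 ± 0.32, 0.0331), and when libraries were weighted by their own spread (1.44 ± 0.28, 0.00515). Over the settings tried its limma adjusted p ranged from 0.00515 to 0.348.

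By tissue, the fitted Nfil3 difference, PLZF+ minus PLZF-, was negative in adipose tissue and positive in the others. It was -0.38 ± 0.69 in adipose tissue (limma adjusted p = 0.986), 1.31 ± 0.69 in lung (0.64), 1.79 ± 0.69 in spleen (0.32) and 2.15 ± 0.69 in lymph node (0.364). In lymph node all 3 PLZF+ libraries were above all 3 PLZF- libraries, a 4.43-fold difference of group means. The lung value rested on the PLZF- library with 4 reads, without which it was 0.37. Same-numbered libraries differed by 1.35, 1.84 and 3.25 in lymph node, by 0.52, 0.17 and 3.23 in lung, and by -0.85, -0.16 and -0.13 in adipose tissue. In spleen, where the numbers did not pair libraries, PLZF- library 2 (16.7 normalized reads) was above PLZF+ library 1 (15.6). The test of whether the subset difference varied with tissue did not pass the threshold (limma F = 2.63, adjusted p = 0.731), nor did the difference between subsets of the adipose minus lymphoid difference (-2.35 ± 0.85, limma adjusted p = 0.993).

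**Figure D4:**
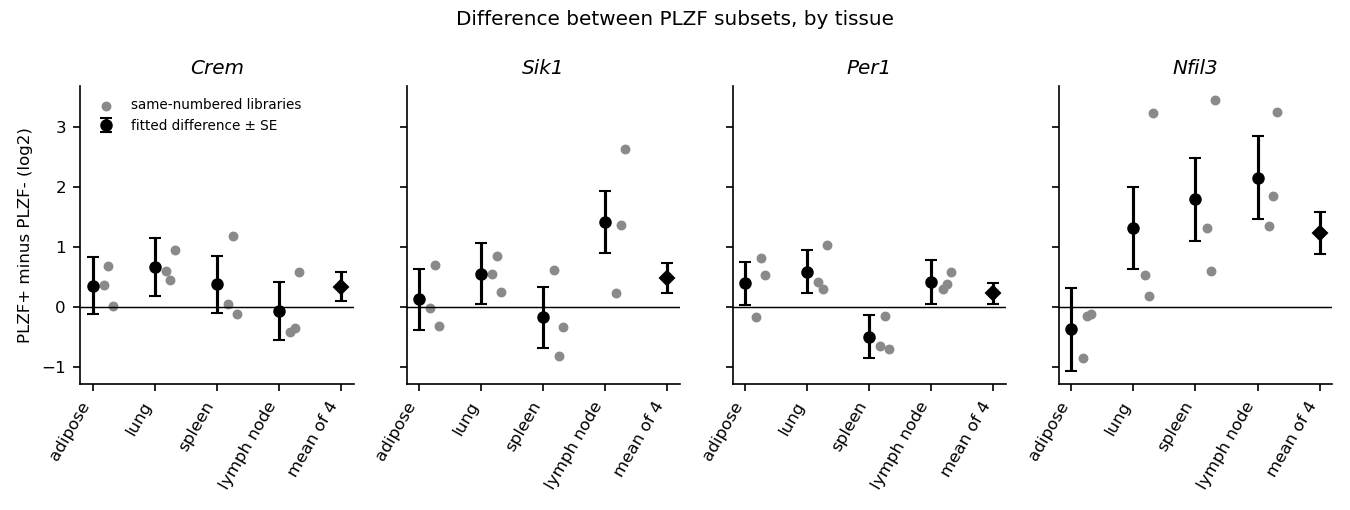
Difference between PLZF+ and PLZF- libraries (log2) for each gene in each tissue and averaged over tissues, as the fitted value with its standard error (black) and as the difference of same-numbered libraries (grey). For Nfil3 the grey points lie above 0 in lung and lymph node and below 0 in adipose tissue. In spleen the numbers did not pair libraries, so the grey points there depend on the numbering. Pairing of libraries 2 and 3 is not established in adipose tissue and lung either.

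The other members showed smaller subset differences. Sik1 differed by 1.41 ± 0.51 in lymph node (2.65-fold, limma adjusted p = 0.532) and Per1 by 0.41 ± 0.36 (limma adjusted p = 0.95), each with no overlap. In spleen Per1 differed by -0.50 ± 0.36 (limma adjusted p = 0.634), also with no overlap. The test of whether the Per1 subset difference varied with tissue did not pass the threshold (limma F = 1.87, adjusted p = 0.782). In lung Sik1 differed by 0.55 ± 0.51 (limma adjusted p = 0.9), with no overlap, Crem by 0.66 ± 0.48 (0.785) and Per1 by 0.58 ± 0.36 (0.691). Libraries of the subsets did not overlap for 3 of 4 members in lymph node, against 13.5% of genes, for 1 in lung (9.39%), for 1 in spleen (23%) and for 0 in adipose tissue (21.8%). In adipose tissue the differences were 0.35 ± 0.48 for Crem, 0.12 ± 0.51 for Sik1 and 0.39 ± 0.36 for Per1.

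No member passed the limma threshold within a tissue, against 0.0999% of genes in adipose tissue, 0.0399% in lung, 0.0999% in spleen and 0.3% in lymph node. At an unadjusted p under 0.05 there were 0 members in adipose tissue (239 of 5007 genes), 0 in lung (390 genes), 1 in spleen (Nfil3, 527 genes) and 2 in lymph node (Nfil3 and Sik1, 288 genes). In the test over tissues 0 members passed, against 0.0799% of genes, with 0 at an unadjusted p under 0.05 (331 genes). In the tests of the adipose and the lung difference between subsets 0 members and 0 genes (0%) passed, with 1 member (Nfil3, 162 genes) and 0 members (376 genes) at an unadjusted p under 0.05. With limma voom on recovered reads 0 members passed in each of the 8 tests, and with weights for each library 1 passed averaged over tissues (Nfil3, with 200 of 5007 genes), 1 in spleen (Nfil3, with 673 genes) and 2 in lymph node (Nfil3 and Sik1, with 154 genes). A missed threshold does not show that the subsets were alike.

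The genes around the members in the cAMP pathway were read from lists. The lists, like the members in them, were chosen with earlier results of these data known. Their counts beside the shares of all genes are therefore descriptions and not independent evidence. Genes named below for a tissue difference were chosen after their values were seen. Of 29 CREB-responsive genes, 24 were in the table and tested, the 4 members among them. In adipose tissue 23 of 24 were above lymphoid tissue with no overlap in PLZF- cells (median log2 difference 4.23) and 22 of 24 in PLZF+ cells (3.94), against 19.1% and 30.4% of all genes. In lung the counts were 20 of 24 (3.26) and 23 of 24 (3.91), against 28.9% and 23.3%. Nr4a1, an orphan nuclear receptor gene of the immediate early class, was 4.65 ± 0.54 and 5.14 ± 0.54 higher in PLZF- and PLZF+ adipose tissue and 3.58 ± 0.54 and 5.90 ± 0.54 higher in lung. Genes whose libraries overlapped were Pde4d in PLZF- adipose tissue, Per2 and Icam1 in PLZF+ adipose tissue, Icam1 in PLZF+ lung, and Per2, Junb, Gem and Icam1 in PLZF- lung. None of the 24 passed between subsets in any of the 8 limma tests. Averaged over tissues the smallest adjusted p values were those of Rgs1, a regulator of G protein signalling (0.80 ± 0.22, limma adjusted p = 0.0949), and Nfil3.

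Of these 24 genes 11 were also among the 34 tested immediate early and tissue handling genes, which is 45.8% of the first list and 32.4% of the second. Those 34 genes were above lymphoid tissue with no overlap in 30 and 31 cases in adipose tissue (medians 3.43 and 3.70 in PLZF- and PLZF+ cells, against 19.1% and 30.4% of all genes) and in 23 and 30 cases in lung (medians 2.31 and 3.34, against 28.9% and 23.3%). Many of these genes are known to respond quickly to cell isolation, and the part of handling in the tissue differences was not tested. None of the 34 passed between subsets, the smallest adjusted p averaged over tissues being that of Dusp4 (1.81 ± 0.47, limma adjusted p = 0.0603). Of 14 tested glucocorticoid-induced genes, Per1 among them, 10 and 8 were above lymphoid tissue with no overlap in adipose tissue (19.1% and 30.4% of all genes) and 7 and 9 in lung (28.9% and 23.3%), with 1 below in PLZF+ lung (Ddit4, -1.90 ± 0.65). Of those 14, Cxcr4, a chemokine receptor gene, fell in PLZF+ cells averaged over tissues (-1.11 ± 0.27, limma adjusted p = 0.0431), where 1.46% of all genes passed.

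Upstream and downstream parts of the cAMP pathway were read in the same 4 comparisons, in which 19.1% and 30.4% of all genes (adipose tissue, PLZF- and PLZF+ cells) and 28.9% and 23.3% (lung) were above lymphoid tissue with no overlap. Of 37 listed cAMP-linked receptors, G proteins and cyclases 9 were tested, and in adipose tissue 3 and 2 of them, in lung 0 and 5, were above lymphoid tissue with no overlap in PLZF- and PLZF+ cells, which is on both sides of those shares. The histamine receptor gene Hrh2 was lower in PLZF+ adipose tissue (-2.97 ± 0.59) and PLZF+ lung (-1.46 ± 0.59), with no overlap. Between subsets, averaged over tissues, 2 of the 9 rose in PLZF+ cells, against 1.46% of all genes called: Ptgdr2, a prostaglandin D2 receptor gene whose product lowers cAMP (2.74 ± 0.35, limma adjusted p = 0.00024); and Ramp3, which modifies receptors for adrenomedullin and related peptides (1.72 ± 0.37, 0.0201). Of 44 listed kinases, phosphodiesterases, CREB relatives and CRTC coactivators 9 were tested, of which 1 and 3 in adipose tissue and 2 and 3 in lung were above with no overlap, and 1 (Rapgef4, PLZF- adipose tissue) was below. These counts are near the shares of all genes on the same deposited values. They were not recounted on log2(normalized reads + 1), where fewer genes were apart. The phosphodiesterase gene Pde4b was above lymphoid tissue with no overlap in all 4 comparisons, by 1.88 ± 0.30 and 1.12 ± 0.30 in adipose tissue and 1.31 ± 0.30 and 0.97 ± 0.30 in lung. None of these 9 passed between subsets; Pde4d, another phosphodiesterase gene, differed by -0.65 ± 0.19 averaged over tissues (limma adjusted p = 0.107).

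Of the 14 listed genes of the SIK family and its substrates 6 were tested, of which 2 in PLZF- and 3 in PLZF+ cells were above lymphoid tissue with no overlap, in adipose tissue and in lung alike, against 19.1% to 30.4% of all genes over these comparisons. Sik2, a kinase of the same family, differed from lymphoid tissue by 1.10 ± 0.39 and 0.86 ± 0.39 in adipose tissue and by 0.29 ± 0.39 and 0.00 ± 0.39 in lung, apart in PLZF+ adipose tissue. Crtc2, the coactivator that salt-inducible kinases phosphorylate, differed by 0.63 ± 0.38 and -0.05 ± 0.38 in adipose tissue and -1.11 ± 0.38 and -0.48 ± 0.38 in lung, with overlap in all 4. Mef2a, a transcription factor held in check by class IIa histone deacetylases, was above in all 4 with no overlap (0.90 to 1.50). None of the 6 passed between subsets. Of 17 listed genes linked to NFIL3 in lymphocytes 4 were tested (Nfil3, Tcf7, Runx3 and Il5), and none passed between subsets. Tcf7, a transcription factor of early and resting T cells, was at -0.95 ± 0.32 averaged over tissues (limma adjusted p = 0.214). In the tissue comparisons Tcf7 lay below lymphoid tissue with no overlap in all 4, at -3.98 ± 0.55 and -2.50 ± 0.55 in adipose tissue and -2.17 ± 0.55 and -0.88 ± 0.55 in lung. Il5, a type 2 cytokine gene, lay above in PLZF- adipose tissue (6.53 ± 0.94) and PLZF- lung (4.31 ± 0.94), and its libraries overlapped in PLZF+ cells (1.50 ± 0.94 and 0.93 ± 0.94).

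Of 32 listed clock symbols 10 were tested, Per1 and Nfil3 among them, and none passed between subsets. In adipose tissue 5 of the 10 were above lymphoid tissue with no overlap in each subset, in PLZF- lung 4, and in PLZF+ lung 7 with 2 lower, against 19.1% to 30.4% of all genes above in these comparisons. Bhlhe40, a repressor of the clock's activators, was above in all 4 (4.07 and 2.99 in adipose tissue, 3.25 and 3.85 in lung). Usp2, a deubiquitinase gene with rhythmic expression, was above in 3 (2.83 and 4.60 in adipose tissue, 3.39 in PLZF+ lung) and at 0.27 in PLZF- lung. Per2, the relative of Per1, differed by less than Per1 in each of the 4, by 1.25 and 1.37 in adipose tissue and 0.79 and 1.91 in lung. Noct, a rhythmic phosphatase gene, was above with no overlap in 3 of the 4, and Bhlhe41, the relative of Bhlhe40, in PLZF+ lung (4.45). Hlf, a D-box activator that acts on the sites NFIL3 represses, was not above lymphoid tissue with separate libraries in any of the 4 (0.16 and -0.74 in adipose tissue, -1.08 and -0.79 in lung). Between subsets Hlf differed by 1.21 ± 0.32 averaged over tissues (limma adjusted p = 0.0782). Timeless and Tipin, partners that act at replication forks, were lower in PLZF+ lung (-0.88 and -1.48).

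**Figure D5:**
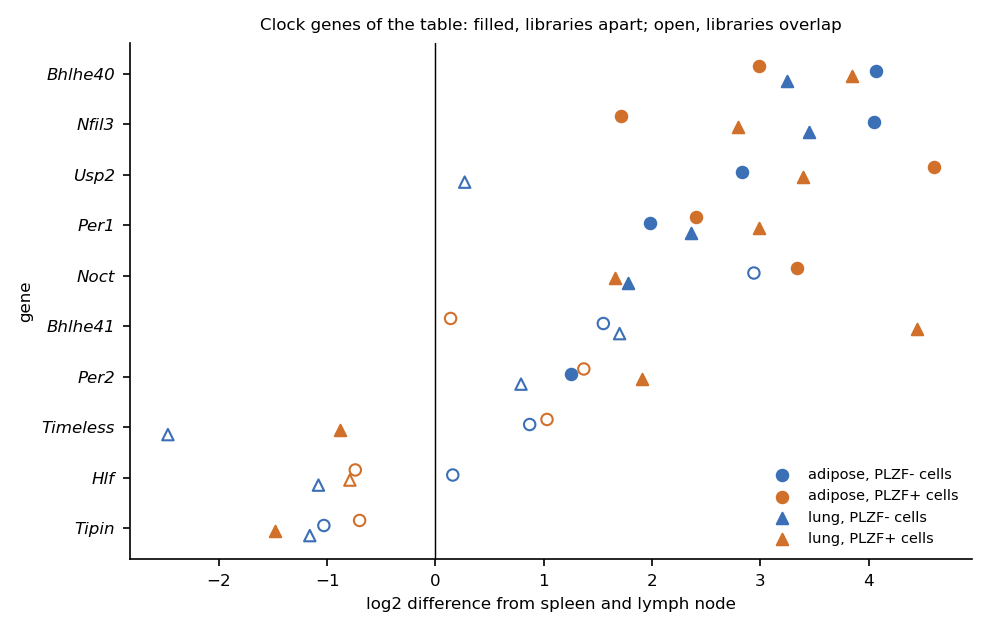
Difference from the mean of spleen and lymph node (log2) for the 10 tested clock genes in adipose tissue (circles) and lung (triangles), in PLZF- (blue) and PLZF+ (orange) cells, with filled marks where the libraries do not overlap. Per1, Nfil3 and Bhlhe40 are filled in all 4 comparisons, and Hlf in none.

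The members resembled each other across libraries through their tissue order. Over 24 libraries the Pearson correlations of log2(normalized reads + 1) were 0.93 for Crem and Sik1, 0.93 for Sik1 and Per1, 0.90 for Crem and Per1, and 0.80 to 0.83 for Nfil3 with the others. Once the mean of each group was taken out they were 0.63 for Crem and Per1, 0.44 for Per1 and Nfil3, and 0.18 to 0.35 for the other pairs. These are descriptions over libraries that share depth and tissue composition. Of 2674 named genes with a mean of at least 10 normalized reads, the 3 most like Crem were Fosl2 (r = 0.95), Irak2 (0.95) and Dgat1 (0.94), and the 3 most like Sik1 were Fosl2 (0.96), Atf3 (0.95) and Csrnp1 (0.94). The 3 most like Per1 were Tnfaip3 (0.96), Dusp5 (0.95) and Fosl2 (0.94), and the 3 most like Nfil3 were Rgs1 (0.90), Dgat1 (0.87) and Cnnm2 (0.87). Fosl2, an AP-1 subunit gene, was thus among the 3 nearest genes of 3 members, while the median correlation over all candidates was 0.27 to 0.37. Within groups the nearest genes were others: Mmgt2 for Crem (0.90), Plekhm3 for Sik1 (0.78), Rpl38 for Per1 (0.91) and Polm for Nfil3 (0.81). The median over all candidates within groups was 0.10 to 0.16, so the lowest correlation between members there (0.18) was near it.

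In the GENCODE annotation of GRCm38 (mm10), Crem lies on chromosome 18 (3266048 to 3337748, minus strand), Sik1 on chromosome 17 (31844250 to 31855804, minus strand), Per1 on chromosome 11 (69095217 to 69109960, plus strand) and Nfil3 on chromosome 13 (52967209 to 52981073, minus strand). All 4 are protein-coding genes, and the reads of each row are summed over the whole gene.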

How the data were processed

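Expression was measured by Smart-seq2 in 24 libraries (8 groups of 3). Per the submitters' processing notes, the build was mm10 and the tools were Cufflinks 1.2, SAMtools 1.2 and HISAT 0.1.6. The deposited log2 values carry TMM factors per library, per the file headers, and the table was filtered in Qlucore at a q-value of 0.05. The deposited p-value and q-value of each gene came with that table, per the file headers, which do not name the test. A one-way test over the 4 tissues returned 7915 of the 7926 p-values within 0.001 on the log10 scale, and 11 merged entries were left out of tests. Because genes entered the table through a tissue difference, tissue comparisons are descriptions with no test.

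Whole reads were recovered for 7922 genes (99.95%; a value counted as whole within at most 0.2 reads), from steps of log2(reads + 0.5). Tests used limma 3.58.1 (R 4.3.3) on the deposited values, with 8 group means, all 24 libraries, a trend of the variance with mean level, only genes that reached 1 in 3 or more libraries, and Benjamini-Hochberg adjustment at 0.05. The fits were tested on simulated data. Total reads per library ranged from 56684 to 832764, so in the shallow lung libraries a few reads set the low values, and depth limits the precision there. Likeness to a member used log2(normalized reads + 1) over genes with a mean of at least 10 normalized reads. Named genes were the members, the list genes past the threshold (or the 2 nearest to it) and the 3 genes most like each member. Further list genes were named for their tissue differences, chosen after their values were seen. The members and the lists were chosen with earlier results of these data known.

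Same-numbered libraries of the subsets deviated together in adipose tissue (r of 0.662, 0.179 and 0.572), lung (0.515, 0.360 and 0.200) and lymph node (0.357, 0.204 and 0.209). In spleen they did not (-0.014, -0.057 and -0.050). In adipose tissue PLZF- library 2 with PLZF+ library 3 (0.292) and 3 with 2 (0.299) exceeded 2 with 2. In lung PLZF- library 3 with PLZF+ library 2 (0.272) exceeded 3 with 3. Only in lymph node did each same-numbered pair exceed the others, so pairing of libraries 2 and 3 is not established in adipose tissue or lung. The labels give no source for this pairing. Alternatives were other scalings, filters, pseudocounts, voom, array weights, replicate blocks and left-out libraries. Zbtb16, the gene of PLZF, is not analysed here.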

Additional observations from a re-analysis of the deposited data

How the results depend on the processing

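Of 472 member differences between subsets recomputed under alternatives other than leaving out 1 library, 457 kept their direction and their side of the threshold, 11 reversed and 4 passed the threshold. Passing, all with array weights, were Nfil3 averaged over tissues (1.44, adjusted p = 0.00515), Nfil3 in spleen (1.89, 0.014), and Sik1 (1.52, 0.0299) and Nfil3 (2.11, 0.0218) in lymph node, which made 1, 1 and 2 members past the threshold in those tests. The weights also took the count of all genes called averaged over tissues from 73 to 200 and in spleen from 5 to 673, while voom gave 101 and 39 and median scaling 27 and 6. The cause was not tested. With a replicate block Nfil3 averaged over tissues had an adjusted p of 0.0576, and with a replicate block within tissue 0.0717. No call of a member changed under either block, and the count of members past the threshold stayed at 0. The block took the count of all genes called in spleen from 5 to 29.

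Reversed differences, none past the threshold, were Sik1 in adipose tissue (-0.02 with median scaling, -0.03 without adipose libraries 2 and 3), Per1 in adipose tissue (-0.17 without those libraries), Crem in spleen (-0.26 with median scaling), Sik1 in spleen (0.16 with array weights), Crem in lymph node (0.08 with median scaling, 0.09 with array weights), the adipose minus lymphoid difference between subsets of Per1 (-0.12 without those libraries) and the lung minus lymphoid one of Sik1 (0.09 with quantile scaling, 0.47 with median scaling, 0.07 with a pseudocount of 5). The cause was not tested. Leaving out 1 library at a time took Sik1 from -0.19 to 0.49 in adipose tissue and from -0.46 to 0.26 in spleen, Crem from -0.28 to 0.24 in lymph node, the adipose minus lymphoid difference between subsets of Crem from -0.03 to 0.51 and the lung minus lymphoid one of Sik1 from -0.33 to 0.18. Members past the threshold averaged over tissues then numbered 0 to 1, with Nfil3 at 0.98 to 1.39 and an adjusted p of 0.0331 to 0.203.

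Of 480 tissue differences 433 moved by less than the spread between libraries, 47 moved by more, and 0 of those with separate libraries changed sign. Members with separate libraries numbered 1 in PLZF- lung against lymphoid tissue with median scaling (4 as deposited), against 7.11% of all genes (28.9% as deposited). Between adipose tissue and lung they numbered 0 (quantile scaling), 2 (without the shallow lung libraries), 3 (without adipose libraries 2 and 3) and 1 to 2 (leaving out 1 library) in PLZF- cells, and 2 (quantile scaling, and without either of these sets of libraries), 0 (median scaling) and 1 to 3 (leaving out 1 library) in PLZF+ cells. Of all 5007 genes, 432 were higher and 815 lower with no overlap there under quantile scaling in PLZF- cells. Without the shallow lung libraries these counts were 1003 and 1467, and without adipose libraries 2 and 3 they were 1104 and 2410. In PLZF+ cells they were 409 and 703, 1517 and 1540, and 880 and 1944, in that order, and 511 and 726 with median scaling. Between spleen and lymph node the members with separate libraries numbered 0 (quantile scaling) and 1 to 2 (leaving out 1 library) in PLZF- cells. In PLZF+ cells they numbered 3 (quantile and median scaling) and 1 to 3 (leaving out 1 library). Of all genes, 293 were then higher and 1531 lower in PLZF- spleen with quantile scaling. In PLZF+ spleen the counts were 503 and 1580 with quantile and 386 and 2069 with median scaling. Counts over all genes are not given here for leaving out 1 library. The setting without adipose libraries 2 and 3 and the filter at a log2 value of 0 were chosen after seeing the data. Fits on the compared groups alone were not run where a comparison used all 8 groups.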
